A study of Mus musculus with 8 samples.

Results

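The genes of sterol and fatty acid synthesis were examined in mouse embryonic stem cells that lacked the histone demethylase Jmjd1a, its relative Jmjd1b, or both. The 30 members were chosen by name from 4 steps: 10 genes from acetyl-CoA to lanosterol (the mevalonate step), 8 genes from lanosterol to cholesterol (the post-lanosterol step), 5 genes of SREBP control and sterol transport (the SREBP feedback step) and 7 genes of fatty acid synthesis. A probe set was counted for a member where that member was its only gene symbol, which gave 67 probe sets for 29 of the 30 genes, out of 18194 genes in the table. Acat2 had no such probe set and was not analysed here. Of the 67 probe sets, 20 were flat, meaning that their 8 values spanned less than 0.01 on the log2 scale, and these hold no measured difference. The share of flat probe sets was 29.9% among the members and 74.5% in the whole table. The 47 measured probe sets covered 28 genes, because both probe sets of Mvk, mevalonate kinase, were flat, at 8.44 and 8.17 on every array, and Mvk was not measured. Also flat and not measured were 4 of the 6 probe sets of Acly and 2 each of Acsl3, Fdft1 and Hsd17b7. The rest were 1 each of Acaca, Cyp51, Elovl6, Fdps, Lss, Sc5d, Scap and Srebf2.

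Gene expression was measured on 8 Affymetrix arrays, 2 biological replicates in each of 4 groups. WT cells were Jmjd1a+/+; Jmjd1b+/+, Jmjd1a-KO cells were Jmjd1adelta/delta; Jmjd1b+/+, Jmjd1b-KO cells were Jmjd1a+/+; Jmjd1bdelta/delta, and double-KO cells were Jmjd1adelta/delta; Jmjd1bdelta/delta. The labels name cells from mice for WT and Jmjd1b-KO, a Jmjd1a-deficient line for Jmjd1a-KO, and that kind of line after deletion of a conditional Jmjd1b allele for double-KO. All cells grew in medium with knockout serum replacement, fetal calf serum and the cytokine leukaemia inhibitory factor, and the treatment text of all 4 groups names 800 nM OHT, which activates the inducible recombinase MerCreMer that was introduced into the conditional lines. The design text also describes Jmjd1b-deficient lines made by targeting and adenoviral Cre, lines D23.6 and D4.1. The labels do not tie a replicate to a line, so a difference between groups and a difference between lines cannot be told apart, and replicates may share a line. The medians of the 8 arrays were 6.80 to 6.81 (log2), and the small number of arrays limits precision. The labels were borne out by the deleted genes: the probe set of Kdm3a (the current symbol of Jmjd1a) was lower by 7.81 in Jmjd1a-KO and by 8.10 in double-KO than in WT, and the measured probe set of Kdm3b (Jmjd1b) was lower by 2.85 in Jmjd1b-KO and by 2.57 in double-KO, all on the log2 scale. Kdm3b read 7.06 and 7.66 in the 2 double-KO replicates, against 7.07 and 7.10 in Jmjd1b-KO.

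All 12 embryonic stem cell markers were measured, among them Pou5f1, which read between 12.07 and 12.67 on the 8 arrays. Of their 18 measured probe sets, 3 were higher and 0 lower in Jmjd1a-KO than in WT. In Jmjd1b-KO 0 were higher and 1 lower, and in double-KO 4 were higher and 1 lower. At the same adjusted p under 0.05, 9.98% of all measured probe sets were higher and 7.84% lower in Jmjd1a-KO. The shares were 12.3% and 11.5% in Jmjd1b-KO, and 26.9% and 19.6% in double-KO. They also stand beside the other marker counts against WT below. In double-KO Nanog had a mean of 11.84 against 10.50 in WT and Zfp42 of 13.22 against 11.89, while Lin28a had 9.68 against 10.64. The part of these markers in the member differences was not tested. The double-KO replicates differed in Fgf4, at 7.58 and 10.37, and in other markers. In the same order, the highest probe set of Esrrb read 7.68 and 9.58 and that of Klf4 8.74 and 10.25. Dppa5a read 13.04 and 13.91, and Utf1 10.04 and 10.82. Sox2 (12.79 and 12.91) and the highest probe set of Sall4 (11.76 and 11.75) were closer. The array means of the 18 probe sets were 9.98 to 10.83 in double-KO and 10.74 to 10.92 in Jmjd1a-KO. They were 10.50 to 10.52 in WT and 10.54 to 10.59 in Jmjd1b-KO. The summed linear value of the 12 measured fibroblast marker probe sets was 8550 to 10200 in WT, 2400 to 3080 in Jmjd1a-KO, 1250 to 1360 in Jmjd1b-KO and 3720 to 5710 in double-KO. Of these 12 probe sets 8 were lower and 0 higher in Jmjd1a-KO than in WT, 8 lower and 1 higher in Jmjd1b-KO, the latter Thy1 at 7.66 against 7.10, and 7 lower and 0 higher in double-KO. Acta2 (11.09 against 12.10) and Tagln (10.11 against 10.41) did not pass between double-KO and WT, nor did Twist1 (6.75 against 6.43) and the Col3a1 probe sets (8.37 against 8.20 and 6.78 against 6.62), which had higher means in double-KO. The part of the fibroblast markers in the differences from WT was not tested. Of the 14 fibroblast genes 9 were measured, and Dcn, Lum, Col6a1, Fap and S100a4 were flat. Neuroectoderm markers, with 8 measured probe sets, summed to 4260 to 4530 in WT and 1950 to 4020 in Jmjd1a-KO. The sums were 1580 to 1650 in Jmjd1b-KO and 1550 to 1790 in double-KO. Among these markers, the Sox1 replicates read 7.72 and 9.76 in Jmjd1a-KO and 8.77 and 7.41 in double-KO. Those of Fabp7 read 7.66 and 9.64 in Jmjd1a-KO and 8.18 and 6.95 in double-KO, while those of Nes lay closer together. The part of the neuroectoderm markers was not tested either. For primitive and visceral endoderm 29 of 32 marker probe sets were flat. Of the 3 measured ones, Sox17 (mean 6.99 against 5.92) and Gata6 (7.09 against 6.61) were higher in double-KO than in WT, and all 3, with Dab2, were higher than in Jmjd1b-KO, where Dab2 was lower than in WT. Of all measured probe sets 28.3% were higher in double-KO than in Jmjd1b-KO. Group means ran from 5.81 to 6.99 for Sox17, 6.61 to 7.09 for Gata6 and 6.23 to 7.47 for Dab2. The lower quartile of the arrays was 6.34 to 6.35. Differences near it are uncertain in size, because signal over background was not examined. The part of the endoderm markers was not tested. In such bulk samples, fewer cells of a type and less RNA per cell cannot be told apart.

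Cells make cholesterol from acetyl-CoA by way of mevalonate, squalene and lanosterol, and make fatty acids from the same acetyl-CoA. Both sets of enzymes are targets of the SREBP transcription factors, which SCAP escorts from the endoplasmic reticulum when sterols are low and which INSIG proteins hold back when sterols are high. Jmjd1a and Jmjd1b remove methyl groups from lysine 9 of histone H3, a mark found at silent genes.

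Promoter sequences are shown for 5 members that stand for the patterns in the arrays: Hmgcs1 for its sterol regulatory element, Lss and Fasn for members that fell in double-KO cells, and Cyp51 and Insig1 for members that rose there. Each is the 150 bases before the RefSeq transcription start in build GRCm38.p6, read 5′ to 3′ on the gene's own strand: chr13:119690201-119690350 (+) for Hmgcs1, chr10:76531455-76531604 (+) for Lss, chr11:120824548-120824697 (-) for Fasn, chr5:4104698-4104847 (-) for Cyp51 and chr5:28071262-28071411 (+) for Insig1. Capitals mark the letters TCACNCCAC (sterol regulatory element), CCAAT (NF-Y box) or CACGTG (E-box) on either strand, and overlapping matches run together.
Hmgcs1: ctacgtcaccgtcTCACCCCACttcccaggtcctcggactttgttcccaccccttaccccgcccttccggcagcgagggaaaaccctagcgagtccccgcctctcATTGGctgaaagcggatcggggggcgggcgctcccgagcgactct
Lss: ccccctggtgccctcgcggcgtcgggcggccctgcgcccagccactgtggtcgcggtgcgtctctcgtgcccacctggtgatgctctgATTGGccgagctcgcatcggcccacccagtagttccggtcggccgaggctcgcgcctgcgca
Fasn: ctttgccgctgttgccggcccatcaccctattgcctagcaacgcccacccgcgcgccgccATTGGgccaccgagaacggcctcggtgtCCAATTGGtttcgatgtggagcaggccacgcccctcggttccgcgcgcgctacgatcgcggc
Cyp51: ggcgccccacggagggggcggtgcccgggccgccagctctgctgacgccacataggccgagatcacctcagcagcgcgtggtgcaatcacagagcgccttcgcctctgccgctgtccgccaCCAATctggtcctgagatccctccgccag
Insig1: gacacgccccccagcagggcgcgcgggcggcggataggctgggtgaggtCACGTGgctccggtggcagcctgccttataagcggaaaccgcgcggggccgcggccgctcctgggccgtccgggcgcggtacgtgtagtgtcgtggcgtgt

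RefSeq windows from 250 bases before to 50 bases after the start were at hand for 24 of the 30 members (30 windows), and not for Fdps, Fdft1, Sqle, Stard4, Scd1 and Scd2. The sterol regulatory element letters were found in 1 of the 24 genes, Hmgcs1, where they span positions -137 to -129 from the start, that is in 3.33% of member windows and 1.24% of all 32851 windows. CCAAT was found in 70% of member windows and 37.4% of all windows, the GC box GGGCGG in 76.7% and 35.7%, and CACGTG in 20% and 7.15%. Among the 24 genes, CCAAT was found in 20 and CACGTG in 5, namely Dhcr7, Hsd17b7, Insig1, Sc5d and Scap. Both strands were searched. These matches describe the letters of the windows, and binding was not measured.

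**Figure D1:**
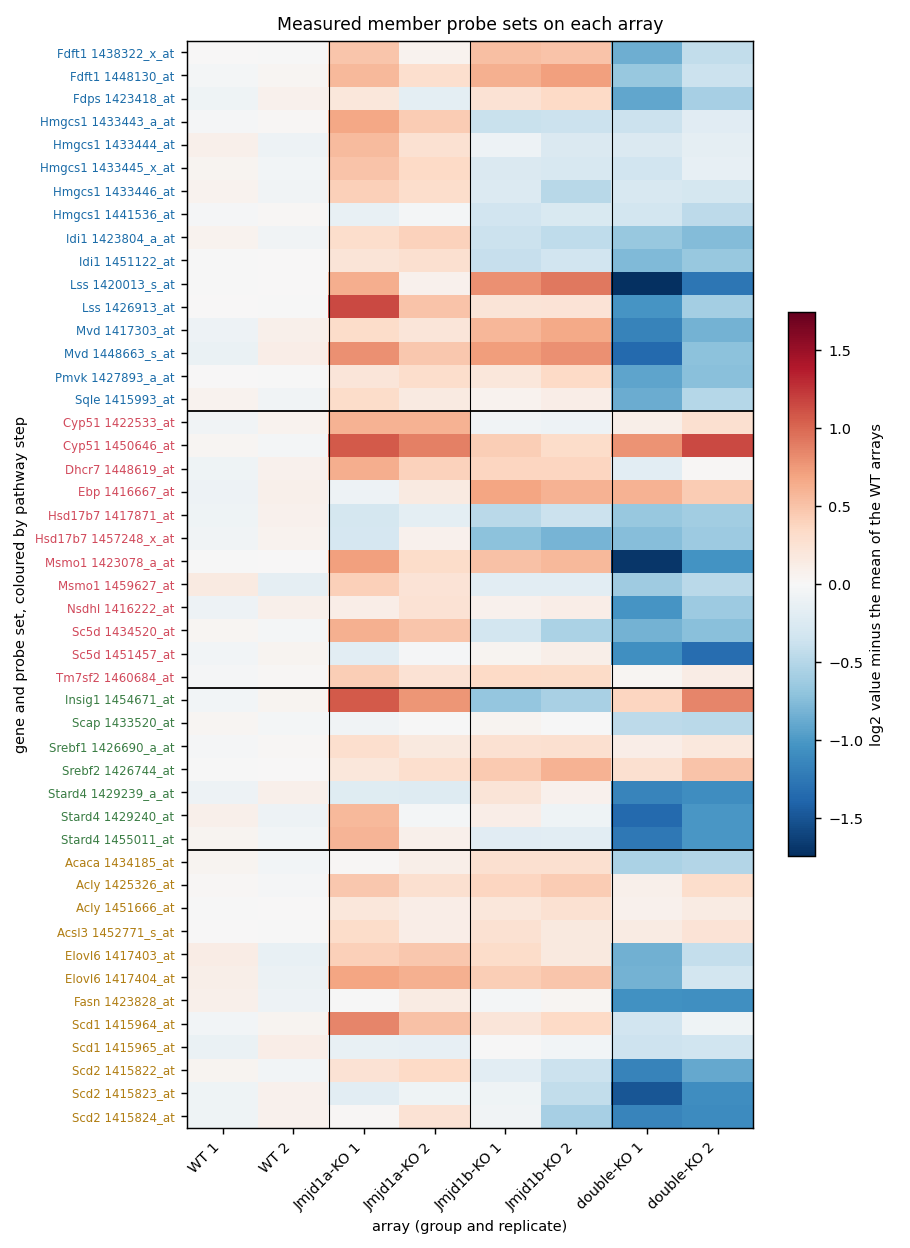
Each row is 1 of the 47 measured member probe sets and each column 1 of the 8 arrays. Colour gives the log2 value minus the mean of the WT arrays, and label colours and black lines separate the 4 pathway steps. Most rows are blue in both double-KO columns, and many are red in both Jmjd1a-KO columns. Cyp51, Ebp, Insig1 and Srebf2 are red in double-KO, and Acly, Acsl3, Srebf1 and Tm7sf2 also lie slightly above the WT mean there.

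The comparison of double-KO with WT asks what loss of both demethylases does to these genes. Most of the pathway was lower in double-KO cells. Of the 47 measured probe sets 32 fell and 4 rose, with a median log2 difference of -0.63, where the median of all 11502 measured probe sets was 0.02. Over the whole array 19.6% of measured probe sets fell and 26.9% rose by the same rule, an adjusted p under 0.05 in a limma fit of all 8 arrays with Benjamini-Hochberg adjustment over the 11502. Taking for each gene the probe set with the highest mean, 17 of 28 genes fell, 4 rose and 7 did not pass. In 30 of the 47 probe sets both double-KO arrays lay below all 6 other arrays, and in 0 they lay above them. Over all 11502 measured probe sets the shares were 17% and 24.2%. All differences below are differences of group means on the log2 scale ± SE, with n = 2 arrays per group, and the words rose and fell are kept for what passed that test.

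In the mevalonate step 13 of 16 probe sets fell in double-KO cells against WT and 0 rose, with a median of -0.69. The lowest was a probe set of Lss, lanosterol synthase, which closes the ring system of the sterols. Lss (1420013_s_at) read 9.90 and 9.91 in WT, 10.54 and 9.97 in Jmjd1a-KO, 10.70 and 10.82 in Jmjd1b-KO and 8.16 and 8.64 in double-KO. Its other measured probe set (1426913_at) read 8.23 and 8.21, 9.38 and 8.72, 8.45 and 8.46, and 7.19 and 7.63 in the same order of groups. Both double-KO arrays were the lowest of the 8 in both probe sets, and no single-knockout array was below WT. The difference from WT was -1.50 ± 0.22 (adjusted p = 0.0037), a 2.84-fold lower level, in the first and -0.81 ± 0.24 (adjusted p = 0.034) in the second.

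Mvd, mevalonate diphosphate decarboxylase, makes the isoprene unit of the pathway. Its probe set 1417303_at read 9.09 and 9.27 in WT, 9.51 and 9.40 in Jmjd1a-KO, 9.77 and 9.85 in Jmjd1b-KO and 8.02 and 8.36 in double-KO. The second Mvd probe set, 1448663_s_at, read 9.11 and 9.32, 10.01 and 9.68, 9.95 and 10.02, and 7.86 and 8.51. The double-KO arrays were again the lowest and the 4 single-knockout arrays the highest, with differences of double-KO from WT of -1.0 ± 0.13 (adjusted p = 0.0022) and -1.03 ± 0.22 (adjusted p = 0.013). Pmvk, phosphomevalonate kinase, acts just before Mvd and read 9.64 and 9.63 in WT, 9.84 and 9.94 in Jmjd1a-KO, 9.84 and 9.99 in Jmjd1b-KO and 8.72 and 8.91 in double-KO. Its double-KO arrays did not overlap any other group, and the difference from WT was -0.83 ± 0.09 (adjusted p = 0.0013).

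Idi1, which isomerises the isoprene unit, had 2 measured probe sets with the same order of groups. Idi1 (1451122_at) read 10.98 and 10.98 in WT, 11.20 and 11.26 in Jmjd1a-KO, 10.58 and 10.65 in Jmjd1b-KO and 10.21 and 10.33 in double-KO. For 1423804_a_at the values were 10.86 and 10.75, 11.12 and 11.22, 10.43 and 10.37, and 10.15 and 10.05. No 2 groups overlapped in either probe set: Jmjd1a-KO was the highest, then WT, then Jmjd1b-KO, then double-KO. Against WT both fell by 0.71 in double-KO (SE 0.06 and 0.07, adjusted p = 0.00075 and 0.0011).

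Farnesyl diphosphate synthase, Fdps, read 12.01 and 12.17 in WT, 12.28 and 11.91 in Jmjd1a-KO, 12.33 and 12.44 in Jmjd1b-KO and 11.18 and 11.51 in double-KO. Squalene synthase, Fdft1, read 11.45 and 11.44, 11.93 and 11.50, 11.97 and 11.94, and 10.60 and 11.02 in 1438322_x_at, and 10.63 and 10.70, 11.22 and 10.96, 11.28 and 11.38, and 10.00 and 10.28 in 1448130_at. Sqle, squalene epoxidase, is a rate-limiting enzyme of the later pathway and read 11.01 and 10.89 in WT, 11.26 and 11.11 in Jmjd1a-KO, 11.01 and 11.07 in Jmjd1b-KO and 10.09 and 10.45 in double-KO. In these 4 probe sets, too, both double-KO arrays were below every other array. The differences from WT were -0.74 ± 0.16 for Fdps, -0.64 ± 0.18 and -0.52 ± 0.13 for Fdft1 and -0.68 ± 0.13 for Sqle, with adjusted p between 0.0086 and 0.031.

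Hmgcs1, the HMG-CoA synthase at the entry of the pathway, differed from the rest of its step. Its highest probe set (1433443_a_at) read 12.09 and 12.13 in WT, 12.78 and 12.55 in Jmjd1a-KO, 11.73 and 11.74 in Jmjd1b-KO and 11.73 and 11.91 in double-KO. Probe set 1433445_x_at read 12.05 and 11.97, 12.51 and 12.36, 11.76 and 11.73, and 11.68 and 11.87, and 1433446_at read 10.51 and 10.38, 10.85 and 10.75, 10.20 and 9.96, and 10.16 and 10.14. Jmjd1a-KO was the highest group in all 3, and the arrays of both groups without Jmjd1b lay below WT. Against WT the double-KO differences of these 3 probe sets were -0.29 ± 0.10, -0.24 ± 0.09 and -0.30 ± 0.10, of which the third alone passed (adjusted p = 0.052, 0.072 and 0.049). A further probe set, 1433444_at, did not pass (-0.20 ± 0.12), and 1441536_at fell (-0.38 ± 0.07) at levels of 6.16 to 6.63, near the lower quartile of the arrays (6.34 to 6.35), where size is uncertain because signal over background was not examined.

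**Figure D2:**
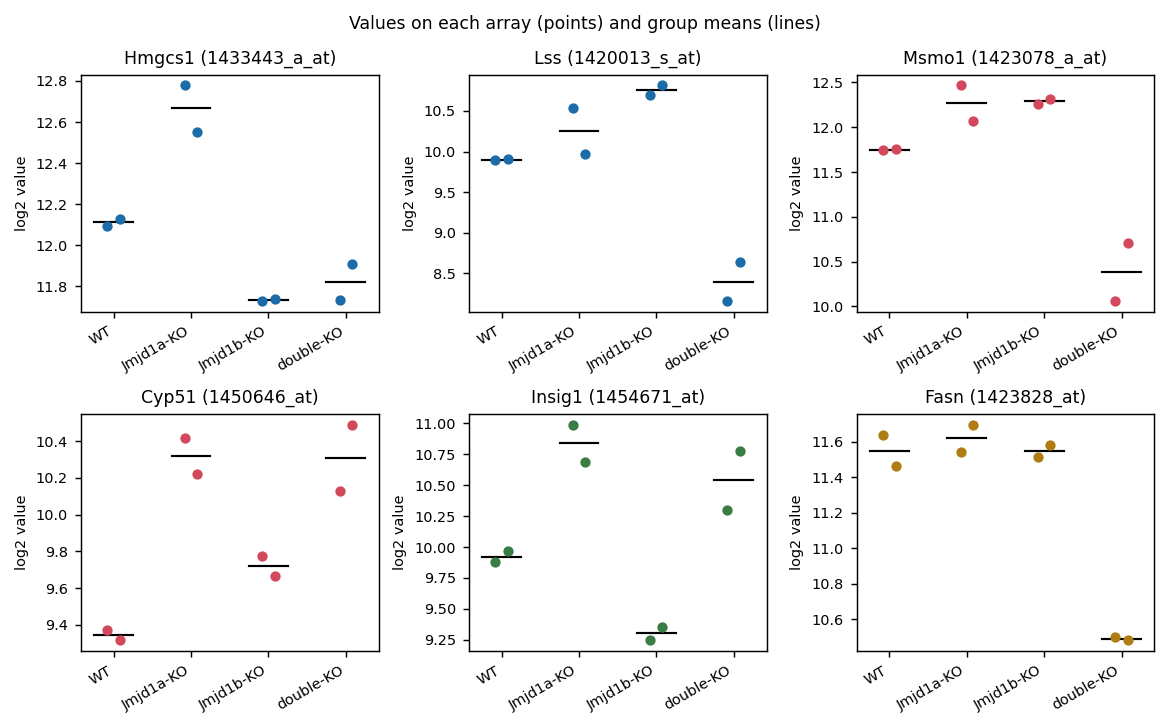
Points are the log2 values on single arrays and black lines the group means for 6 members, with a separate scale that does not start at 0 in each panel. Lss, Msmo1 and Fasn are lowest in double-KO, Hmgcs1 is low in both groups without Jmjd1b, and Cyp51 and Insig1 are higher in Jmjd1a-KO and double-KO than in WT.

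Of the 12 post-lanosterol probe sets 7 fell in double-KO against WT, those of Msmo1, Sc5d, Hsd17b7 and Nsdhl, and 2 rose, those of Cyp51 and Ebp. Msmo1, Nsdhl and Hsd17b7 act together to remove methyl groups from the sterol ring. Msmo1 (1423078_a_at) read 11.74 and 11.76 in WT, 12.47 and 12.07 in Jmjd1a-KO, 12.26 and 12.31 in Jmjd1b-KO and 10.06 and 10.71 in double-KO. Every single-knockout array was above WT and both double-KO arrays were more than a log2 unit below it, a difference of -1.36 ± 0.23 (adjusted p = 0.0055) or 2.57-fold. The weak probe set 1459627_at of Msmo1, at 6.19 to 7.22, fell by 0.55. Nsdhl read 9.95 and 10.12 in WT, 10.16 and 10.28 in Jmjd1a-KO, 10.11 and 10.14 in Jmjd1b-KO and 9.01 and 9.40 in double-KO, and it differed by -0.83 ± 0.14 (adjusted p = 0.0052).

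Hsd17b7 read 8.11 and 8.26 in WT, 7.88 and 8.01 in Jmjd1a-KO, 7.71 and 7.81 in Jmjd1b-KO and 7.52 and 7.58 in double-KO in probe set 1417871_at. In 1457248_x_at it read 7.97 and 8.09, 7.74 and 8.10, 7.31 and 7.22, and 7.29 and 7.39. Both groups without Jmjd1b were below WT in both, and the double-KO differences were -0.63 ± 0.08 and -0.68 ± 0.13 (adjusted p = 0.0024 and 0.0078). Sc5d, the desaturase that acts before the last step, had probe sets that agreed for double-KO and disagreed for the single knockouts. Sc5d (1451457_at) read 9.37 and 9.47 in WT, 9.23 and 9.40 in Jmjd1a-KO, 9.47 and 9.52 in Jmjd1b-KO and 8.35 and 8.09 in double-KO, while 1434520_at read 8.07 and 8.01, 8.66 and 8.52, 7.72 and 7.48, and 7.22 and 7.32. They differed from WT in double-KO by -1.20 ± 0.11 and -0.77 ± 0.10 (adjusted p = 0.00077 and 0.0023).

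Cyp51, the demethylase that takes lanosterol as its substrate, went the other way in 1 of its 2 measured probe sets. Cyp51 (1450646_at) read 9.37 and 9.32 in WT, 10.42 and 10.22 in Jmjd1a-KO, 9.77 and 9.67 in Jmjd1b-KO and 10.13 and 10.49 in double-KO. The other, 1422533_at, read 8.60 and 8.72, 9.27 and 9.27, 8.60 and 8.57, and 8.76 and 8.94. Both double-KO arrays were above WT in each, and the difference was 0.96 ± 0.13 (adjusted p = 0.0029), or 1.95-fold, in the first and 0.19 ± 0.08 (adjusted p = 0.10, not passing) in the second. Ebp, a sterol isomerase, read 9.28 and 9.47 in WT, 9.29 and 9.53 in Jmjd1a-KO, 10.06 and 9.98 in Jmjd1b-KO and 9.98 and 9.82 in double-KO. It was high in both groups without Jmjd1b and rose by 0.52 ± 0.11 (adjusted p = 0.013) in double-KO.

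Dhcr7, the reductase of the last step, read 9.22 and 9.36 in WT, 9.93 and 9.69 in Jmjd1a-KO, 9.66 and 9.66 in Jmjd1b-KO and 9.10 and 9.31 in double-KO. Tm7sf2, a sterol reductase that acts after Cyp51, read 9.04 and 9.09, 9.49 and 9.32, 9.41 and 9.39, and 9.11 and 9.20. Both were above WT on all 4 single-knockout arrays. Their double-KO differences from WT, -0.08 ± 0.11 for Dhcr7 and 0.09 ± 0.08 for Tm7sf2, did not pass.

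The 5 SREBP feedback genes were split. Insig1 and Srebf2 rose in double-KO, and Scap and all 3 measured probe sets of Stard4 fell. Insig1, which retains the SCAP and SREBP complex, read 9.88 and 9.97 in WT, 10.99 and 10.69 in Jmjd1a-KO, 9.25 and 9.36 in Jmjd1b-KO and 10.30 and 10.78 in double-KO. The 4 arrays without Jmjd1a were above WT and both Jmjd1b-KO arrays below it, and double-KO differed from WT by 0.62 ± 0.18 (adjusted p = 0.032). Insig1 kept this call in 3 of 8 fits that each left out 1 array, with adjusted p between 0.012 and 0.13. Srebf2, which encodes the SREBP that chiefly drives sterol genes, read 8.91 and 8.93 in WT, 9.12 and 9.21 in Jmjd1a-KO, 9.38 and 9.53 in Jmjd1b-KO and 9.20 and 9.42 in double-KO. All 6 knockout arrays were above WT, and the double-KO difference was 0.39 ± 0.10 (adjusted p = 0.02).

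Srebf1, which encodes the SREBP that chiefly drives fatty acid genes, read 10.19 and 10.22 in WT, 10.50 and 10.37 in Jmjd1a-KO, 10.47 and 10.49 in Jmjd1b-KO and 10.33 and 10.39 in double-KO, and its double-KO difference (0.15 ± 0.06) did not pass. Scap, the escort of the SREBPs, read 9.27 and 9.20 in WT, 9.17 and 9.22 in Jmjd1a-KO, 9.29 and 9.23 in Jmjd1b-KO and 8.78 and 8.76 in double-KO. Both double-KO arrays lay below the 6 other arrays for Scap, with -0.47 ± 0.06 against WT (adjusted p = 0.0019). Stard4, which carries cholesterol between membranes, read 8.36 and 8.54 in WT, 8.23 and 8.22 in Jmjd1a-KO, 8.68 and 8.52 in Jmjd1b-KO and 7.31 and 7.37 in double-KO in 1429239_a_at. Probe set 1429240_at read 9.51 and 9.33, 9.99 and 9.38, 9.54 and 9.35, and 8.07 and 8.41, and 1455011_at read 9.30 and 9.22, 9.85 and 9.35, 9.06 and 9.07, and 8.01 and 8.25. Each had its 2 lowest arrays in double-KO, and the differences from WT were -1.11 ± 0.09, -1.18 ± 0.22 and -1.13 ± 0.17, between 2.17-fold and 2.27-fold lower.

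Among the fatty acid genes 8 of 12 probe sets fell in double-KO against WT and 0 rose. Fasn, fatty acid synthase, read 11.64 and 11.46 in WT, 11.54 and 11.70 in Jmjd1a-KO, 11.51 and 11.58 in Jmjd1b-KO and 10.50 and 10.48 in double-KO. The other 3 groups overlapped one another and double-KO lay far below them, with -1.06 ± 0.08 against WT (adjusted p = 0.00057), or 2.09-fold. Acaca, acetyl-CoA carboxylase, commits acetyl-CoA to fatty acids and read 9.62 and 9.53 in WT, 9.59 and 9.68 in Jmjd1a-KO, 9.85 and 9.85 in Jmjd1b-KO and 9.02 and 9.06 in double-KO, a difference of -0.54 ± 0.06 (adjusted p = 0.0015).

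Scd2, a desaturase that makes monounsaturated fatty acids, read 12.70 and 12.60 in WT, 12.90 and 12.99 in Jmjd1a-KO, 12.46 and 12.28 in Jmjd1b-KO and 11.48 and 11.76 in double-KO in 1415822_at. Its probe set 1415823_at read 9.66 and 9.80, 9.55 and 9.66, 9.66 and 9.30, and 8.25 and 8.65, and 1415824_at read 8.02 and 8.18, 8.13 and 8.36, 8.04 and 7.53, and 6.96 and 7.0. All 3 had their lowest values in double-KO, lower than WT by 1.03, 1.29 and 1.12 (SE 0.11, 0.17 and 0.18). Elovl6, an elongase, read 9.99 and 9.74 in WT, 10.28 and 10.33 in Jmjd1a-KO, 10.18 and 10.04 in Jmjd1b-KO and 9.03 and 9.45 in double-KO in 1417403_at, and 10.55 and 10.34, 11.12 and 11.06, 10.87 and 10.93, and 9.62 and 10.13 in 1417404_at. Single-knockout arrays were the highest and double-KO arrays the lowest, at -0.63 ± 0.15 and -0.57 ± 0.17 against WT (adjusted p = 0.02 and 0.037).

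Scd1, the related desaturase, had 2 probe sets with negative differences in double-KO against WT. Scd1 (1415964_at) read 10.67 and 10.77 in WT, 11.58 and 11.24 in Jmjd1a-KO, 10.94 and 11.06 in Jmjd1b-KO and 10.39 and 10.65 in double-KO, and its double-KO difference (-0.20 ± 0.14) did not pass, while 1415965_at, at 8.42 to 8.89, fell by 0.35 ± 0.08 (adjusted p = 0.017). Acly, which supplies cytosolic acetyl-CoA, and Acsl3, which activates fatty acids, did not pass in double-KO against WT. Acly (1451666_at) read 12.13 and 12.14 in WT, 12.33 and 12.25 in Jmjd1a-KO, 12.33 and 12.41 in Jmjd1b-KO and 12.21 and 12.29 in double-KO, with a difference of 0.11 ± 0.06. Its probe set 1425326_at read 10.07 and 10.02, 10.52 and 10.33, 10.43 and 10.48, and 10.14 and 10.36, and the difference was 0.20 ± 0.10. Acsl3 read 10.00 and 9.98, 10.30 and 10.10, 10.25 and 10.17, and 10.14 and 10.23, with 0.19 ± 0.08. In these 3 probe sets all 6 knockout arrays were above WT.

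The double-KO replicates were not alike over the members: replicate 1 was below replicate 2 in 40 of 47 probe sets, with a median difference of -0.19. Against WT, 27 probe sets passed without double-KO replicate 1 and 34 without replicate 2. When each of the 8 arrays was left out in turn, 21 of the 36 calls, in 15 genes, passed every time. Where an array was left out, the lone array of its group was assumed to vary like the other groups.

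**Figure D3:**
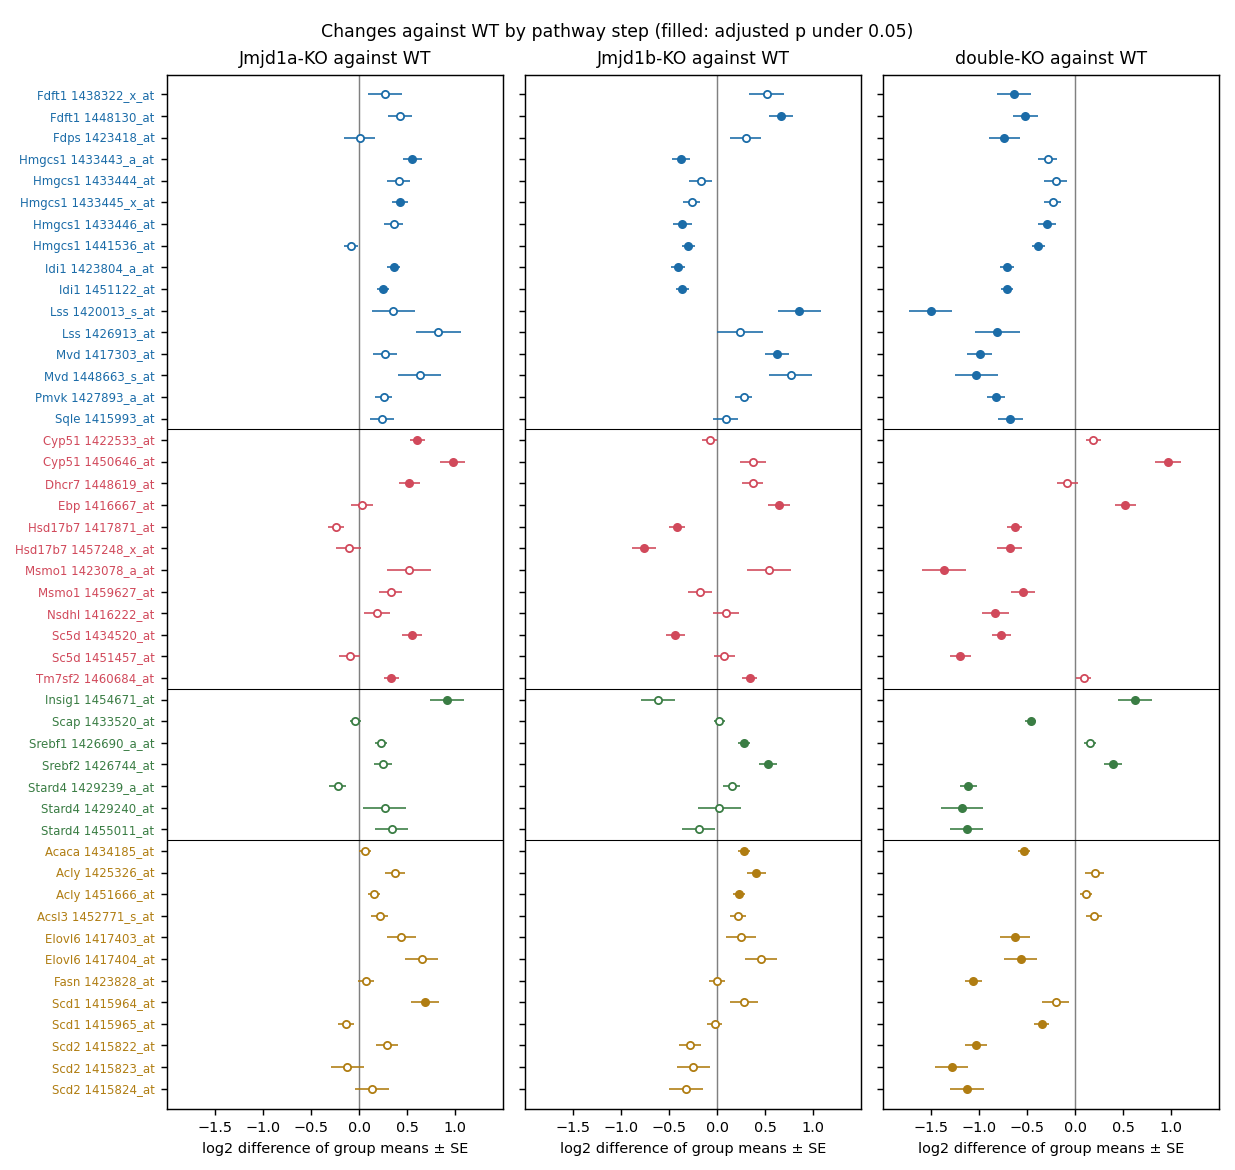
Points are log2 differences of group means from WT for the 47 measured probe sets, with bars of ± SE, and filled points have an adjusted p under 0.05. In double-KO 32 filled points lie left of 0 and 4 right of it, in Jmjd1a-KO 11 lie right and 0 left, and in Jmjd1b-KO 10 lie right and 8 left.

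Double-KO was compared with Jmjd1a-KO, where both groups lack Jmjd1a and differ in Jmjd1b. The labels do not tie a replicate to a line, so loss of Jmjd1b and line cannot be told apart. Here 37 of 47 member probe sets fell, and the sole riser was Ebp (0.49 ± 0.11, adjusted p = 0.026), with a median of -0.89 against 0.02 over all measured probe sets. Of all measured probe sets 11.9% fell and 17% rose. All 16 mevalonate probe sets fell, by 0.30 to 1.86, and so did 9 of 12 post-lanosterol, 4 of 7 SREBP feedback and 8 of 12 fatty acid probe sets. Lss, at -1.86 ± 0.22, and Msmo1, at -1.88 ± 0.23, were the lowest, and Hmgcs1 fell here in all 5 probe sets, from -0.30 to -0.84. Cyp51 (1422533_at) fell too (-0.42 ± 0.08), while 1450646_at differed by -0.01 ± 0.13. Insig1 differed by -0.30 ± 0.18 and did not pass, nor did Srebf1 (-0.07 ± 0.06) or Srebf2 (0.14 ± 0.10). In a fit of these 4 arrays alone 13 member probe sets passed.

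Double-KO was also compared with Jmjd1b-KO, where both groups lack Jmjd1b and differ in Jmjd1a. The labels do not describe double-KO cells as made from Jmjd1b-KO cells, so loss of Jmjd1a and line cannot be told apart in this comparison. There 31 member probe sets fell and 3 rose, with a median of -0.48 against 0.04, and of all measured probe sets 21.8% fell and 28.3% rose. The lowest was again Lss (1420013_s_at), at -2.36 ± 0.22, followed by Msmo1 at -1.90 ± 0.23 and Mvd at -1.80 ± 0.22. The risers were Insig1 (1.24 ± 0.18, adjusted p = 0.0027) and both Cyp51 probe sets (0.59 ± 0.13 and 0.27 ± 0.08). Hmgcs1 and Hsd17b7 did not pass in any probe set, with differences between -0.21 and 0.09, and Ebp did not either (-0.12 ± 0.11). By step, 11 of 16 mevalonate, 7 of 12 post-lanosterol, 4 of 7 SREBP feedback and 9 of 12 fatty acid probe sets fell. The comparisons of double-KO with the 3 other groups share the double-KO arrays, and those against WT share the WT arrays.

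In Jmjd1a-KO against WT 11 of 47 member probe sets rose and 0 fell, with a median of 0.27 against 0.0045 over all measured probe sets. Of all measured probe sets 9.98% rose and 7.84% fell. The 11 member risers belonged to 8 genes. By the probe set with the highest mean of each gene, 7 of 28 genes rose and 21 did not pass. Cyp51 rose by 0.97 ± 0.13 (adjusted p = 0.011) and 0.61 ± 0.08 (adjusted p = 0.0099), Insig1 by 0.92 ± 0.18 (adjusted p = 0.024) and Scd1 (1415964_at) by 0.69 ± 0.14 (adjusted p = 0.028). Hmgcs1 rose in 2 probe sets (0.56 ± 0.10 and 0.42 ± 0.09), as did Idi1 (0.36 ± 0.07 and 0.25 ± 0.06). Sc5d rose in 1434520_at (0.55 ± 0.10) and not in 1451457_at (-0.10 ± 0.11), and Dhcr7 (0.52 ± 0.11) and Tm7sf2 (0.34 ± 0.08) rose as well. Lss (0.35 and 0.82), Msmo1 (0.52) and Mvd (0.27 and 0.63) had positive differences that did not pass. None of the 11 calls held in all 8 fits with 1 array left out: the count was 0 without either WT array, 3 without either Jmjd1b-KO array, 4 without Jmjd1a-KO replicate 1 and 17 without Jmjd1a-KO replicate 2. In a fit of the 4 arrays of these groups alone it was 2.

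Jmjd1b-KO cells, which lack Jmjd1b alone, differed from WT in both directions. Against WT 10 member probe sets rose and 8 fell, with a median of 0.09 against 0.0027 over all measured probe sets, and 12.3% of these rose and 11.5% fell. Lss (1420013_s_at, 0.85 ± 0.22), Fdft1 (1448130_at, 0.66 ± 0.13), Ebp (0.64 ± 0.11), Mvd (1417303_at, 0.62 ± 0.13) and Srebf2 (0.53 ± 0.10) rose. So did both Acly probe sets (0.41 and 0.23), Tm7sf2 (0.34), Acaca (0.28) and Srebf1 (0.28). The other measured probe sets of Lss (0.24), Fdft1 (0.51) and Mvd (0.77) had positive differences that did not pass. The 8 lower probe sets were those of Hsd17b7 (-0.42 ± 0.08 and -0.76 ± 0.13), Idi1 (-0.41 ± 0.07 and -0.36 ± 0.06), Sc5d (1434520_at, -0.44 ± 0.10) and 3 of Hmgcs1 (-0.38, -0.36 and -0.30). Insig1 differed by -0.62 ± 0.18 and did not pass (adjusted p = 0.052). The count of 18 fell to 0 when either WT array or either Jmjd1b-KO array was left out, and it was 32 in a fit of these 4 arrays alone and 30 with array weights.

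The single knockouts were also set against each other. Of all measured probe sets 15.1% were higher in Jmjd1a-KO than in Jmjd1b-KO and 12.7% lower. Among the member probe sets 13 were higher and 3 lower. The largest difference was in Insig1 (1.54 ± 0.18, adjusted p = 0.0037), followed by Sc5d (1434520_at, 0.99 ± 0.10), Hmgcs1 (0.93 ± 0.10) and Idi1 (0.77 ± 0.07 and 0.61 ± 0.06). Both Cyp51 probe sets were higher in Jmjd1a-KO as well (0.68 and 0.60), and so was Hsd17b7 in 1457248_x_at (0.65). Ebp (-0.61 ± 0.11), Stard4 (1429239_a_at, -0.37 ± 0.09) and Acaca (-0.22 ± 0.06) were lower. Of these 16 calls 8, in Insig1, Hmgcs1, Idi1, Sc5d and Cyp51, passed without each array in turn, and the count was 9 without Jmjd1b-KO replicate 1 and 8 without replicate 2.

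The groups with and without Jmjd1a may also differ in line, so genotype and line cannot be told apart here. Whether the difference with loss of Jmjd1b was the same with and without Jmjd1a was tested as an interaction. This interaction was the double-KO mean minus both single-knockout means plus the WT mean. It was below 0 past the threshold in 32 of 47 member probe sets and above 0 in 0. The median was -0.88 against 0.02 over all measured probe sets, of which 11.1% were below and 13.9% above. Lss (1420013_s_at) had the lowest value, -2.71 ± 0.32 (adjusted p = 0.0054), from a rise of 0.85 with Jmjd1a and a fall of 1.86 without it. Mvd followed at -2.42 ± 0.32 and -1.89 ± 0.18, and Msmo1 at -2.42 ± 0.32. The same test passed for Elovl6 (-1.31 and -1.68), Fdft1 (-1.42 and -1.61), Pmvk (-1.36), Fasn (-1.13), Dhcr7 (-0.98) and Acaca (-0.87). It did not pass for any Hmgcs1, Hsd17b7 or Cyp51 probe set, nor for Insig1 (0.32 ± 0.25), Ebp (-0.15 ± 0.16), Srebf2 (-0.39 ± 0.13) or Acsl3 (-0.24 ± 0.12). Leaving out WT replicate 1 gave 20 such probe sets, WT replicate 2 gave 19 and either Jmjd1b-KO array gave 16, and 13 of the 32, in 11 genes, passed without each array in turn.

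**Figure D4:**
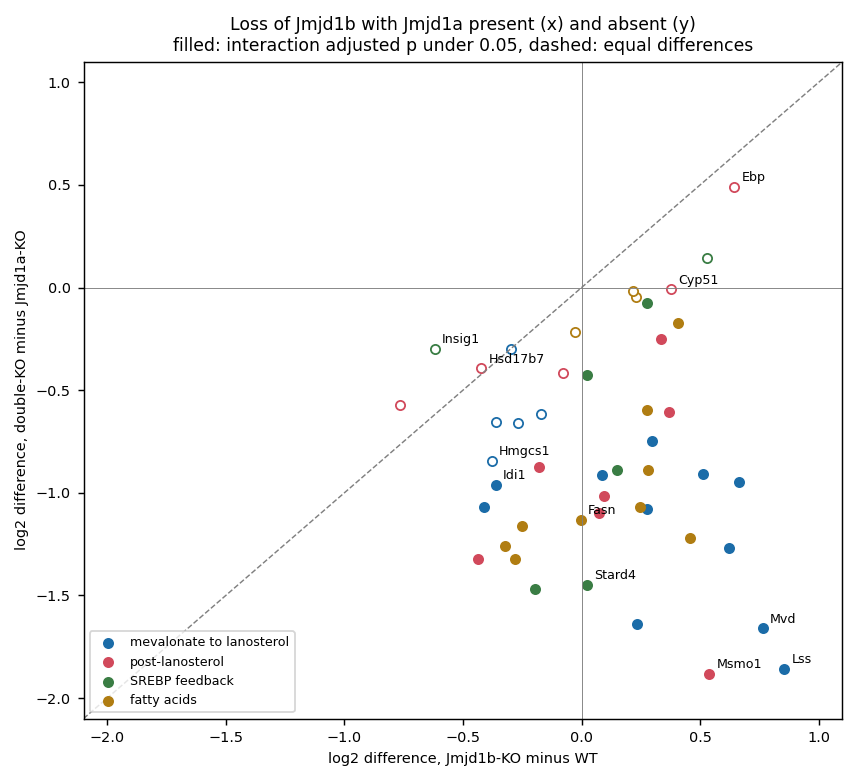
Each point is a measured member probe set, with the log2 difference of Jmjd1b-KO from WT on the x axis and of double-KO from Jmjd1a-KO on the y axis, coloured by step. The 32 filled points, with an interaction adjusted p under 0.05, all lie below the dashed line of equal differences. Lss, Msmo1 and Mvd are farthest below it, and Hsd17b7, Ebp and Insig1 are open points near it.

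The probe sets of a gene did not always move alike. Of the 14 members with several measured probe sets, 0 had probe sets of opposite sign in double-KO against WT or against Jmjd1a-KO, and 2 did against Jmjd1b-KO. In each single knockout against WT 5 had opposite signs. In Jmjd1a-KO these were Hmgcs1, Sc5d, Scd1, Scd2 and Stard4, with the widest gap, 0.82, between the probe sets of Scd1. In Jmjd1b-KO they were Cyp51, Msmo1, Sc5d, Scd1 and Stard4, with the widest gap, 0.72, between those of Msmo1.

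Other genes of these pathways were read from lists that hold no member. A list of further sterol and SREBP genes had 12 measured probe sets, in 10 genes, of which 9 rose and 0 fell in double-KO against WT, with a median of 0.47, where 26.9% of all measured probe sets rose and 19.6% fell. Npc1 (0.92 ± 0.07) and Npc2 (0.46 and 0.47), which export cholesterol from lysosomes, rose, and so did Mbtps1 (0.72 ± 0.08) and Mbtps2 (0.64 ± 0.09), the proteases that cut SREBPs, and Mylip (0.93 ± 0.18), a ubiquitin ligase induced by sterols. Against Jmjd1a-KO 5 rose and 1 fell, beside 17% and 11.9% of all measured probe sets, and against Jmjd1b-KO 8 were higher and 0 lower, beside 28.3% and 21.8%. In Jmjd1a-KO against WT there were 3 risers, Npc1 (0.68 ± 0.07), Erg28 (0.57 ± 0.06) and Mbtps2 (0.40 ± 0.09), and no faller, beside 9.98% and 7.84% over all measured probe sets. In Jmjd1b-KO against WT 2 rose, Mylip (0.77 ± 0.18) and Npc1 (0.57 ± 0.07), and 2 fell, Mbtps2 (-0.39 ± 0.09) and Erg28 (-0.29 ± 0.06), beside 12.3% and 11.5%. Nr1h2 and Soat1 were not analysed here.

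In a list of 19 further fatty acid genes, with 20 measured probe sets in 15 genes, 7 probe sets rose and 5 fell in double-KO against WT, with a median of 0.03. Over all measured probe sets 26.9% rose and 19.6% fell. Acss2, which makes acetyl-CoA from acetate, rose by 1.21 ± 0.11 and 0.47 ± 0.13, and Me1, which supplies NADPH, by 0.68 ± 0.05. Acacb, the mitochondrial acetyl-CoA carboxylase, fell by 1.93 ± 0.11, and Lpin1, a phosphatidate phosphatase, by 1.30 ± 0.23 and 0.94 ± 0.21. Acss2 and Me1 also rose in each single knockout against WT, by 1.02 and 0.42 in Jmjd1a-KO and by 0.66 and 0.28 in Jmjd1b-KO, and the second Acss2 probe set by 0.50 in Jmjd1b-KO. In Jmjd1a-KO Acacb was also lower (-0.84 ± 0.11). Lpin1 rose in Jmjd1b-KO, by 0.98 ± 0.23 and 0.93 ± 0.21. Acsl1 was not analysed here.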

How the data were processed

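The authors deposited a table of log2 values with 45101 probe sets in rows and 8 Affymetrix arrays in columns, made, per the labels' protocols, from 200 ng of total RNA. R 2.7.2 is named in the submitters' processing notes. Background correction, normalization or summarization of the arrays was not given in the sources used here. From the deposited values themselves the log2 unit was read. Of the probe sets 33599 were flat (span under 0.01) and 33238 spanned less than 1e-06, so 11502 were tested. Gene symbols came from the platform's annotation, in which 34958 had 1 symbol, 932 several and 9211 none.

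A model with 4 group means was fitted to all 11502 with limma 3.58.1 in R 4.3.3 (lmFit, eBayes, 4 residual and 1.89 prior degrees of freedom, prior variance 0.00681), without covariates, for 7 contrasts with Benjamini-Hochberg adjustment and a threshold of 0.05. The error is shared by all groups, while replicates differed more in Jmjd1a-KO and double-KO: the SD of the replicate difference over the tested probe sets was 0.35 in Jmjd1a-KO, 0.30 in double-KO, 0.16 in WT and 0.12 in Jmjd1b-KO. Array values were shown for member probe sets that passed in a contrast and were among the 4 largest changes of their step there, or had the highest mean of their gene, besides Kdm3a and Kdm3b. Further pathway genes were named only where they passed, or as not analysed. Members, lists and tests were chosen with earlier results of these data known, so the counts are not independent evidence. No measured values were identical between replicates. The fit was checked on simulated data. Alternatives covered normalization, flat and dim probe sets, 1 probe set per gene, the arrays in the fit, weights, a trended robust eBayes, a replicate block, a threshold of 0.01 and omission of each array. Python 3.11.15 with matplotlib 3.10.9 drew the figures.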

Additional observations from a re-analysis of the deposited data

Results flagged for a closer look

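In 32 member probe sets the log2 difference between groups without and with Jmjd1b was not the same with and without Jmjd1a. This was read from the interaction in the limma fit at an adjusted p under 0.05, in which genotype and line cannot be told apart. The values are the difference of double-KO from Jmjd1a-KO minus that of Jmjd1b-KO from WT, and all 32 are negative. In the mevalonate step they were -2.71 and -1.87 for the probe sets of Lss, -2.42 and -1.89 for Mvd, -1.61 and -1.42 for Fdft1, -1.36 for Pmvk, -1.05 for Fdps, -1.0 for Sqle and -0.66 and -0.60 for Idi1. In the post-lanosterol step they were -2.42 and -0.69 for Msmo1, -1.17 and -0.88 for Sc5d, -1.11 for Nsdhl, -0.98 for Dhcr7 and -0.59 for Tm7sf2. Among the SREBP feedback genes they were -1.47, -1.28 and -1.04 for Stard4, -0.45 for Scap and -0.35 for Srebf1. Among the fatty acid genes they were -1.68 and -1.31 for Elovl6, -1.17 for Scd1, -1.13 for Fasn, -1.04, -0.94 and -0.91 for Scd2, -0.87 for Acaca and -0.58 for Acly. Replicate pairs were too few to look for single outlying arrays.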

How the results depend on the processing

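No call on a member probe set changed sign: of 3220 comparisons of a called probe set with an alternative, 2580 stayed past the threshold, 640 lost it and 0 reversed. Many alternatives leave the log2 difference of a probe set unchanged, so its sign could not reverse in them. It could reverse only with quantile normalization, with centring on the array median, or where an array of the compared groups was left out. Quantile normalization and centring on the array median kept every count of calls within 1.5 times. Counts of calls are given here in the order Jmjd1a-KO, Jmjd1b-KO and double-KO against WT, double-KO against Jmjd1a-KO and against Jmjd1b-KO, Jmjd1a-KO against Jmjd1b-KO, and interaction, where the main counts were 11, 18, 36, 38, 34, 16 and 32. With flat probe sets in the fit, which raise the number of tests to 45101, they were 0, 0, 15, 12, 15, 7 and 8. With 1 probe set per gene, which leaves 28 member probe sets, the counts that moved by over 1.5 times were 10, 21, 21, 21, 7 and 20, all but the first. Every main call whose probe set stayed in that fit was kept, so the counts there were lower because fewer member probe sets were tested. At an adjusted p under 0.01 those that moved were 1, 0, 23, 8 and 12, all but double-KO against either single knockout. In fits of only the groups compared Jmjd1a-KO against WT gave 2, Jmjd1b-KO against WT 32 and double-KO against Jmjd1a-KO 13 (the interaction needs all groups and has no such fit), and array weights gave 30 for Jmjd1b-KO against WT. The cause of the other shifts was not tested. Without single arrays the counts ranged from 0 to 17, 0 to 22, 24 to 37, 30 to 37, 24 to 34, 8 to 18 and 16 to 35. The labels give same-numbered replicates only a shared number, and whether they share more is not known. Their deviations correlated between -0.04 and 0.24. With the replicate number as a block the count for Jmjd1b-KO against WT was 11, and the other counts were 9, 33, 38, 32, 16 and 27. Signal over background was not examined, so differences near the lower quartile of the arrays are uncertain in size.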
